A study of Mus musculus with 4 samples.

Results

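The 10 enzymes described here build or break down triglyceride. Their transcripts were followed in cardiac mesenchymal progenitors (CMPs) before and after the transfer of reprogramming factors. The 10 genes were taken by name, and probes were assigned where the gene name in the scanner files was that of a member or an older synonym. They were Gpd1, Gpam, Agpat2, Lpin1, Dgat1 and Dgat2, which make triglyceride, and Pnpla2, Lipe, Mgll and Lpl, which split it. On the arrays they had 17 of the 55681 probes, and all 10 were among the 16659 genes measured. CMPs were Sca-1+ cells from the hearts of adult wild-type C57BL/6 mice, of which the atria were used. They had been grown in medium with 10% serum and bFGF. Sendai virus vectors from a CytoTune kit carried Oct4, Sox2, Klf4 and c-Myc (OSKM) into the cells, which were then kept in reprogramming medium and collected as OSKM-CMPs at days 4, 6 and 8. The CMP control was untreated and labelled day 0, and whether it had seen the reprogramming medium is not given in the sources used here. The control had 1 time point and no array of virus without factors was used here, so time in culture, medium, virus and factors cannot be told apart. RNA of each condition was read on 1 single-colour array, and all comparisons with the control share its array. No condition had a replicate, so no test between conditions was made and no p-value is given. An error (±) is 1 SD from the scanner software's error model for the spots and covers neither cultures nor RNA preparation.

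Adipocytes store fatty acids as triglyceride and release them on demand, and both arms are active in mature fat. In synthesis, glycerol 3-phosphate receives fatty acids one after another on the endoplasmic reticulum, a phosphate is removed, and a last acyl chain is added to diacylglycerol. In lipolysis, a chain of lipases in the cell removes the fatty acids again one at a time, while lipoprotein lipase works outside the cell on circulating lipoproteins. Several of these genes are known targets of Pparg, the regulator of fat cell differentiation.

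Each array detected between 56.6% and 59.6% of its probes well above background, and the median SD between repeated spots of a probe was 0.063 to 0.067 on the log2 scale. No spot was saturated. All 8 markers of mesenchymal progenitors were well above background on all 4 arrays. At day 8, 2 of them (25%) were at least 2-fold higher than in the control and 3 (37.5%) lower. Of all genes, 14.4% were higher and 11.7% lower at that day. Ly6a (Sca-1) and Nt5e were higher, by 2.69 and 2.10, while Thy1, Itgb1 and Eng had log2 changes of -1.78, -1.35 and -1.19. All 8 adipocyte markers were at least 2-fold higher at days 6 and 8. At day 4 this was shown for 7 of them, while Cidec, not above background in the control, had a change of 1.11 ± 1.16. Their summed signal, in units of the array's 75th percentile, was 5.01 in the control and 46.9, 164 and 356 on the arrays of days 4, 6 and 8, and 4 of the 8 were well above background in the control. Macrophage markers stayed at a summed signal of 1.72 to 1.89, with 8 of 9 measured. At day 8, 2 of these (25%) were at least 2-fold higher, Cd68 by 1.56 ± 0.42 and Coro1a by 1.12 ± 0.23. Tyrobp, not above background there, was lower by at least 1.58-fold, and Laptm5 stayed below the detection call on all 4 arrays. Of 8 cardiomyocyte markers 7 were measured. At day 8, 1 (14.3%), Tnnt2, was lower, by a log2 change of -1.60. In the same comparison 4 (57.1%) were at least 2-fold higher, or 3 with dim values at their bound. These 4, Myh6, Tnni3, Myl2 and Myl7, were dim, with day 8 signals of 0.047, 0.093, 0.142 and 0.073 against 3.90 for Tnnt2. Myl2 alone of the 4 was well above background in the control. Tnnt2 made up most of the summed signal of the 7 markers, which was 4.34 to 12.0 and highest in the control. The 6 endothelial markers summed to between 1.12 and 1.91, again highest in the control, and 3 (50%) were lower at day 8, against 11.7% of all genes. Whether any of these cells took part in the values below was not tested. In bulk RNA, fewer cells of a type and less RNA per cell cannot be told apart.

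At day 4 the enzymes were split. Gpd1, Dgat2 and Lpin1 were at least 2-fold higher than in the CMP control and Lpl and Mgll at least 2-fold lower, while the other 5 lay within 2-fold. Of all genes, 12.1% were at least 2-fold higher and 9.57% at least 2-fold lower at that day. At day 6, 8 of the 10 were at least 2-fold higher, against 13.0% of all genes, and 0 were lower, against 11.5%. At day 8 the count was again 8 higher, against 14.4% of all genes, and 0 lower, against 11.7%. Dgat1 and Mgll were the enzymes within 2-fold at both days, and Dgat1 came close, at 1.98-fold at day 8. From day 4 over day 6 to day 8, the median log2 change over the enzymes was 0.31, 1.96 and 2.49, where the median of all genes was -0.01, -0.04 and -0.03. At day 4 the median was 0.58 for the 6 synthesis genes and -0.51 for the 4 lipases, and at day 8 these medians were 2.48 and 2.62. No lipase lay near the day 4 median, with Lpl at -1.62, Mgll at -1.50, Pnpla2 at 0.47 and Lipe at 0.85. The synthesis genes ranged from -0.33 (Dgat1) to 4.46 (Gpd1) at that day.

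**Figure D1:**
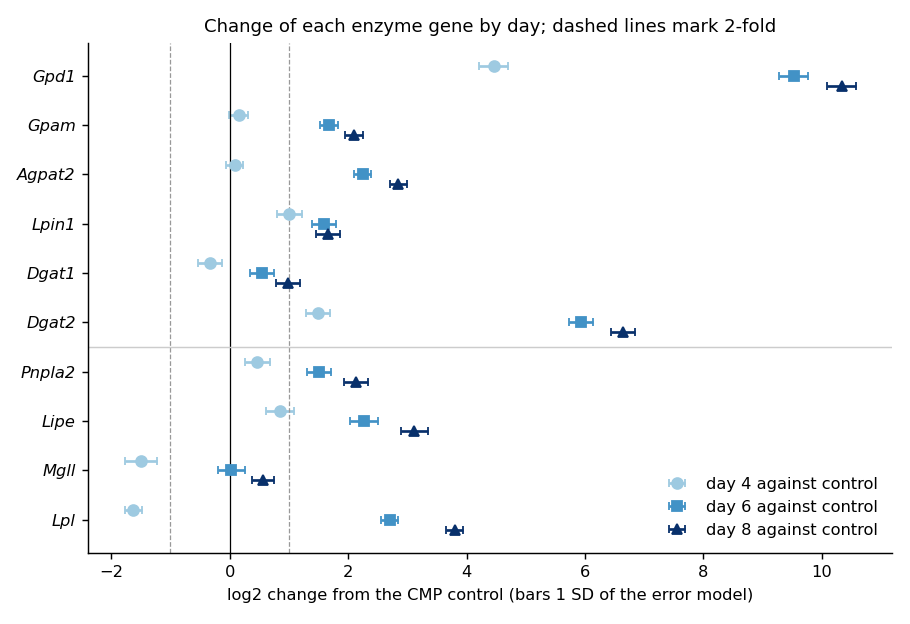
Log2 change of each of the 10 genes from the CMP control at day 4 (circles), day 6 (squares) and day 8 (triangles), with bars of 1 SD from the error model, 1 array per condition and dashed lines at 2-fold; the synthesis genes stand above the grey line and the lipases below it. At day 4 Lpl and Mgll lie left of the dashed line, and at day 8 all genes but Dgat1 and Mgll lie to the right of the other.

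Gpd1, the cytosolic glycerol 3-phosphate dehydrogenase that makes the glycerol backbone from a glycolytic intermediate, differed most. Its processed signal was 25.1 in the control and 549.8, 19290 and 34206 at days 4, 6 and 8. Each array was thus above the one before it, and the control was dim but still well above background. The change was 4.46 ± 0.24 on the log2 scale at day 4 and 10.34 ± 0.24 at day 8, or 1292-fold, and ranked 5 among the 16659 genes. With normexp background correction, run here with an offset added to all signals, and quantile normalization it was 428-fold. It was read by 1 probe (chr15:99555334-99555393; probe positions are on mm9).

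Gpam, the mitochondrial glycerol phosphate acyltransferase that attaches the first fatty acid, did not differ between the control and day 4 beyond its error. One of its probes (chr19:55143274-55143333) gave signals of 143, 160, 431 and 654 on the control, day 4, day 6 and day 8 arrays, and the other (chr19:55144289-55144348) gave 38.5, 42.5, 142 and 174. Both probes stepped up between day 4 and day 6. Their mean log2 change was 0.15 ± 0.16, 1.68 ± 0.15 and 2.11 ± 0.15 at days 4, 6 and 8. The last was 4.31-fold, and 2.56-fold with normexp.

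Agpat2 followed the same course. It encodes the acyltransferase that adds the second fatty acid and whose loss causes congenital generalized lipodystrophy in humans. Its brighter probe (chr2:26448610-26448669) read 7036 in the control and 7457, 35766 and 54532 at days 4, 6 and 8, and the other probe (chr2:26449107-26449166) read 812, 861, 3928 and 6074. The day 4 change, 0.09 ± 0.14, was within the error, and the changes of 2.25 ± 0.14 at day 6 and 2.85 ± 0.14 at day 8 were not. Of the genes with a promoter entry in the RefSeq table (build GRCm38.p6), Agpat2 and Lipe differed most from the control at day 8 and Mgll least, so their upstream sequences are shown. With normexp, Pnpla2 would take the place of Lipe. The 250 bases before the Agpat2 start (chr2:26604418-26604667, minus strand) hold 1 match to the Klf-type GGGNGTGG motif, 154 bases before the start and in capitals.
Agpat2: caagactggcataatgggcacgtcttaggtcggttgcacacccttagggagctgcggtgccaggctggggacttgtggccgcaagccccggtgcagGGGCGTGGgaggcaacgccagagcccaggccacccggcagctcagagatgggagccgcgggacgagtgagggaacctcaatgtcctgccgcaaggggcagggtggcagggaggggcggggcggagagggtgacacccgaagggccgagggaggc

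Lpin1, a phosphatidate phosphatase that turns phosphatidate into diacylglycerol, was above the control by day 4, higher again at day 6 and then flat. The probe that was kept (chr12:16543695-16543754) read 352 in the control and 707, 1110 and 1174 at days 4, 6 and 8. The change was 1.01 ± 0.20 at day 4, just past 2-fold, and 1.66 ± 0.20 at day 8, so that 60.8% of the day 8 change on the log2 scale stood at day 4. Days 6 and 8 differed by 0.07 ± 0.20, within the error. A second Lpin1 probe (chr12:16542515-16542574), placed 5526 bases into its transcript where the first is placed 4346 bases in, stayed below the detection call on all 4 arrays, with signals of 2.69 to 12.1. The first 30 bases of each probe are shown because the gene's value rests on the one and not the other.
Lpin1, kept: aggtctcatgtggtccacatagttcacagg
Lpin1, not above background: attatccatgaatgaggcctaatgacagtg

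The enzymes of the last step, Dgat1 and Dgat2, catalyse the same reaction and belong to unrelated protein families, and their values parted widely. Dgat2 (chr7:106302215-106302274) read 579.4 in the control and 1624, 37110 and 61239 at days 4, 6 and 8, each array above the one before. Its change was 1.49 ± 0.20, 5.94 ± 0.20 and 6.65 ± 0.20 at days 4, 6 and 8, the last being 100.1-fold and ranking 64 among all genes. Dgat1 (chr15:76333128-76333274, a probe whose span of 147 bases is longer than the probe) read 822, 652, 1247 and 1713 in the same order. It was lowest at day 4, with a change of -0.33 ± 0.20, and reached 0.98 ± 0.20 at day 8.

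**Figure D2:**
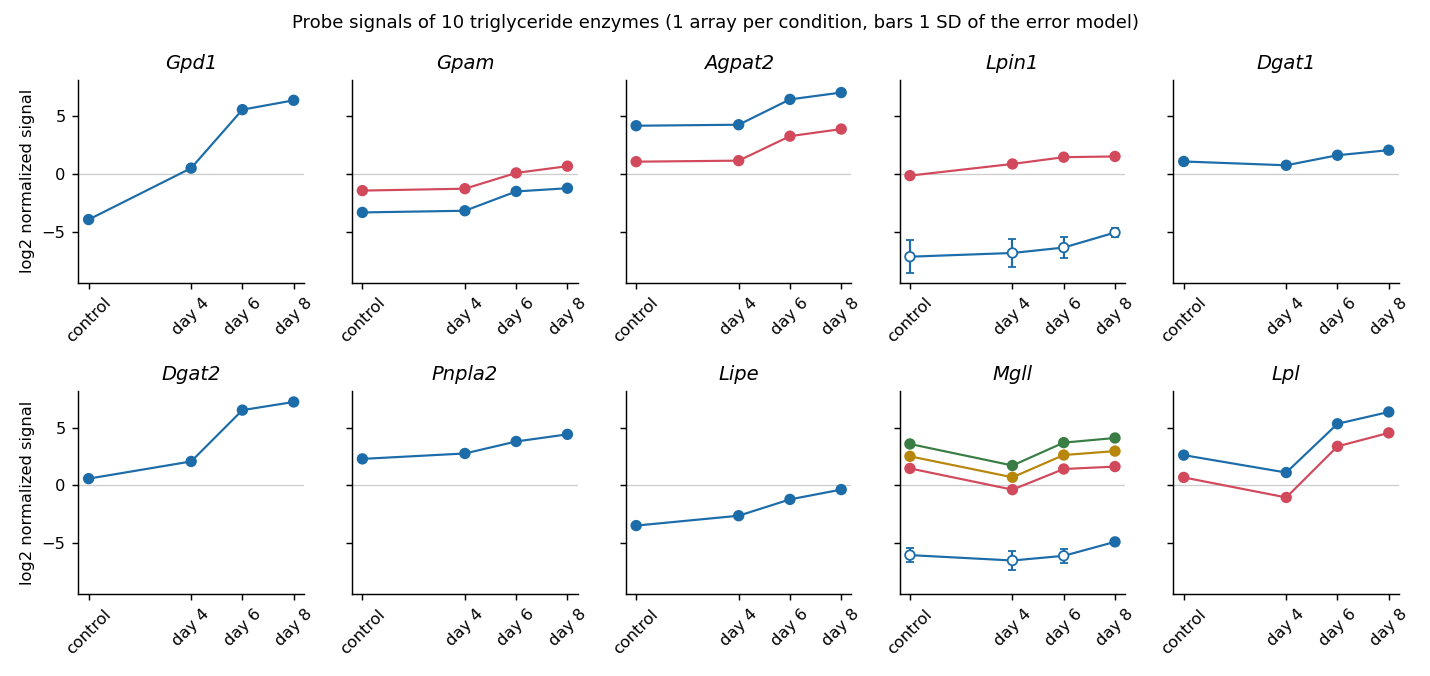
Log2 normalized signal of every probe of the 10 genes on the CMP control and the day 4, 6 and 8 arrays, 0 being the array's 75th percentile; 1 line per probe, open points not well above background, bars of 1 SD from the error model. The lines of Lpl and of the 3 brighter Mgll probes dip at day 4, and the steepest lines, those of Gpd1, Dgat2 and Lpl, climb between day 4 and day 6.

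Pnpla2, adipose triglyceride lipase, takes the first fatty acid off stored triglyceride. Its probe (chr7:148645928-148645987) read 1898 in the control and 2622, 5642 and 8755 at days 4, 6 and 8. The changes were 0.47 ± 0.20, 1.51 ± 0.20 and 2.13 ± 0.20, the last being 4.37-fold.

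Lipe, hormone-sensitive lipase, acts mainly on diacylglycerol and is switched on by protein kinase A. Its probe (chr7:26165828-26165887) read 34.5 in the control and 62.3, 173.8 and 317 at days 4, 6 and 8. The low readings were still well above background on all 4 arrays. The change at day 8 was 3.12 ± 0.23, or 8.69-fold. With normexp background correction and quantile normalization it was 3.74-fold, below the 4.61-fold of Pnpla2.

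Mgll, monoacylglycerol lipase, removes the last fatty acid and is the member with the smallest change at day 8. Its brightest probe (chr6:88778292-88778351) read 4651 in the control and 1273, 5263 and 7041 at days 4, 6 and 8. The other bright probes (chr6:88775976-88776035 and chr6:88714636-88714695) read 2216, 627, 2498 and 3200, and 1071, 298, 1079 and 1261. All 3 were lowest at day 4 and back at the control's level at day 6. Their changes at day 4 lay between -1.87 and -1.82, each ± 0.20. A dimmer probe (chr6:88716266-88716325), with signals of 4.23 to 13.7, was well above background at day 8 alone and changed by -0.47 ± 1.00 at day 4. With all probes the gene changed by -1.50 ± 0.27, 0.03 ± 0.23 and 0.57 ± 0.18 at days 4, 6 and 8. Without the dim probe the day 8 change was 0.38. The first 30 bases of the brightest and the dim probe follow.
Mgll, brightest: aattactaaagaagccaatgtgcactacag
Mgll, dim: atttgtgagacttatttggcagataatatt

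Lpl, lipoprotein lipase, releases fatty acids from circulating lipoproteins for uptake by the cell, and had the widest swing of the lipases. One probe (chr8:71430267-71430326) read 2380 in the control and 833, 16341 and 33571 at days 4, 6 and 8, and the other (chr8:71425050-71425109) read 624, 187, 4207 and 9561. Day 4 was the lowest array and day 8 the highest by both probes. The change from the control was -1.62 ± 0.15, 2.70 ± 0.14 and 3.80 ± 0.14 at days 4, 6 and 8, so that from day 4 to day 8 Lpl was 42.9-fold higher. Lpl was also the one enzyme at least 2-fold higher at day 8 than at day 6, by 1.10 ± 0.14.

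The upstream sequences of Lipe and Mgll, each with 2 windows in the table, are shown for comparison with that of Agpat2. Lipe window 1 (chr7:25395988-25396237, minus strand) holds CACGTG, the E-box bound by Myc among other factors, 155 bases before its start. Lipe window 2 (chr7:25390113-25390362, minus strand) holds GGGNGTGG on the opposite strand, 65 bases before its start. Mgll window 1 (chr6:88724162-88724411, plus strand) holds CACGTG 44 bases before its start, and Mgll window 2 (chr6:88724454-88724703, plus strand), not printed, holds none of the motifs searched. Capitals mark these matches.
Lipe window 1: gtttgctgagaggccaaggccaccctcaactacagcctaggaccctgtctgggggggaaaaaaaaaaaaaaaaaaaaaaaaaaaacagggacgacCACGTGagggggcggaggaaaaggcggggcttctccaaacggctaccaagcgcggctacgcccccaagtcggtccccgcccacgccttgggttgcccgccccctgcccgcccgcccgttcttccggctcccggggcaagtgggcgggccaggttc
Lipe window 2: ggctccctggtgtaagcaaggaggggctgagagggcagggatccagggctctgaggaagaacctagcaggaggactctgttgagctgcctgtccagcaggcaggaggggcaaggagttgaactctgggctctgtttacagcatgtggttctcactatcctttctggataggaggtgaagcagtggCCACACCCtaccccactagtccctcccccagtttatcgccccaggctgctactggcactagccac
Mgll window 1: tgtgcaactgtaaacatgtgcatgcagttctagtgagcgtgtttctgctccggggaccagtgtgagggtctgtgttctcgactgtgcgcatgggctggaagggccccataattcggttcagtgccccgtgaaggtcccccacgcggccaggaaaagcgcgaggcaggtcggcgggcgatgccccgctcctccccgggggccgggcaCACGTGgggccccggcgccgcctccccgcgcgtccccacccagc

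Promoter entries were found for 6 of the 10 genes, with 9 windows in all. Over them, 6 motifs were searched on both strands. AGGTCA, the core site of nuclear receptors, occurred in 1 window each of Gpam and Lpin1, and GGGNGTGG occurred in 1 window each of Gpam, Agpat2 and Lipe. CACGTG occurred in window 1 of Lipe and of Mgll. Of 32817 windows of the same length over all genes, 14.0% held AGGTCA, 15.9% GGGNGTGG and 6.02% CACGTG. The direct repeat of AGGTCA with 1 base between its copies (0.0335% of all windows), the site of Pparg with its partner, whose every match is also a match to AGGTCA, the C/EBP-type TTGNGNAA (11.7%) and the sterol-type TCACNCCAC (1.05%) were in none of the 9. A match is a match of letters and is not evidence of binding.

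The step from day 4 to day 6 was the main one. Over it, 8 of the 10 enzymes were at least 2-fold higher and 0 lower, where 2.83% of all genes were higher and 2.65% lower. The median change was 1.52, against -0.03 for all genes. The step was 5.07 for Gpd1, 4.45 for Dgat2 and 4.33 for Lpl, which ranked 12, 16 and 17 among all genes, and Lpin1 with 0.59 and Dgat1 with 0.87 stayed under 2-fold. From day 6 to day 8 the median was 0.61, against -0.01, and 1 enzyme was at least 2-fold higher, where 2.43% of all genes were, and 0 lower, where 1.01% were. The later step was the smaller one in all 10 enzymes. From day 4 to day 8, 9 of the 10 were at least 2-fold higher, where 4.91% of all genes were, and 0 were lower, against 4.11%. Lpin1 was the exception, at 0.65 ± 0.20.

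The following patterns were picked after the values were seen. As many as 7 genes (Gpd1, Gpam, Agpat2, Lpin1, Dgat2, Pnpla2 and Lipe) were higher on each array in turn, as were 12.4% of all genes, although several of the steps were within the error. In 9 of the 10, Lpin1 being the exception, the largest upward step of the 3 was that from day 4 to day 6, as it was in 4626 (27.8%) of all genes. Among genes at least 2-fold higher at day 8 than in the control, this held for 7 of 8 enzymes and for 292 of all 2392 genes (12.2%). Lpl and Mgll were at least 2-fold lower at day 4 than in the control and at least 2-fold higher at day 8 than at day 4, as were 180 genes (1.08%). Lpl was also 1 of 13 genes (0.0780%) at least 2-fold lower at day 4 and at least 2-fold higher at day 8, both against the control. Others of these 13 were Serpina3c, with changes of -1.51 and 3.07, Mrap, a melanocortin receptor accessory protein, with -1.18 and 2.39, and Ffar4, a receptor for long-chain fatty acids, with -1.59 and 2.03.

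**Figure D3:**
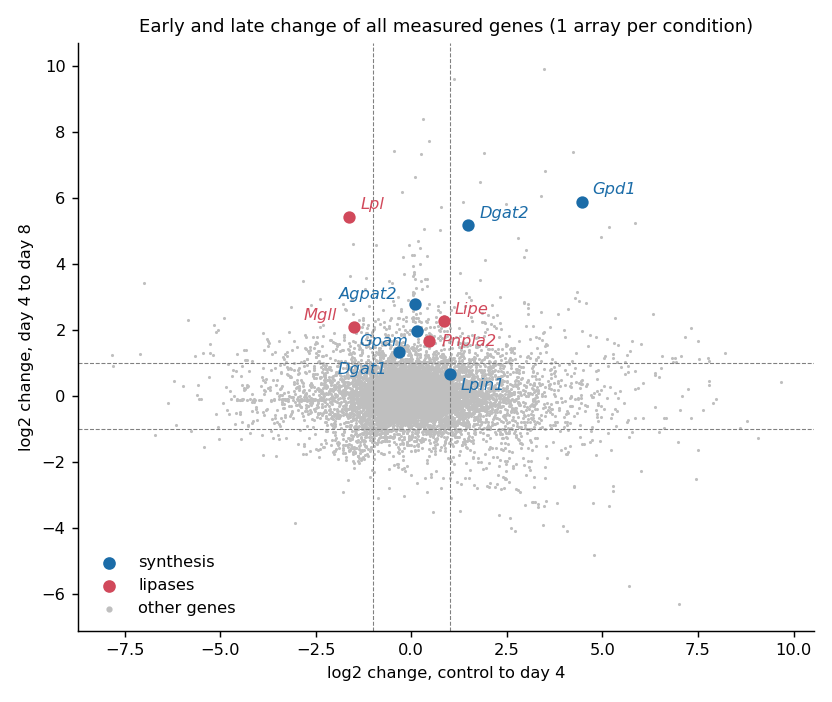
Log2 change from day 4 to day 8 against log2 change from the control to day 4 for all 16659 genes (grey) with the synthesis genes in blue and the lipases in red; 1 array per condition, dashed lines at 2-fold. Both axes use the day 4 array, so an error there moves a point along a falling diagonal. Lpl and Mgll lie at the upper left, Gpd1 and Dgat2 at the upper right, and 9 of the 10 genes lie above the upper dashed line.

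The other genes of the pathway gave a different count. Of 89 genes listed in 9 groups, 82 were measured and 7 were not well above background on any array. At day 8, 19 of the 82 were at least 2-fold higher than in the control and 6 lower, with a median change of -0.07. These shares were 23.2% and 7.32%, where 14.4% and 11.7% of all genes were higher and lower. For a gene not well above background in the control a lower bound on the fold is given, its day 8 signal over its own control signal or over the dimmest signal detected well above background on the control array, whichever is higher. Such a bound was needed for 7 of the 82. With them at it, 18 were at least 2-fold higher, Hcar1 being under at 1.99-fold, and no group's median moved. These 7 were all among the 19 and passed the filter on dim probes through OSKM arrays alone, so the filter favoured counting them as higher. The shares of all genes rest on the same filter. Where all 4 arrays had to be above background, 12 were higher, and the matching share of all genes is not given here.

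Family members of the enzymes that act on the same step differed little with few exceptions. Gpat3, a glycerol phosphate acyltransferase of the endoplasmic reticulum, was higher by 3.93 ± 0.20, while Gpat4 changed by -0.25 and Gpat2 by -0.49. All 5 other lysophosphatidate acyltransferases, the relatives of Agpat2, lay within 2-fold, from -0.51 (Agpat1) to 0.41 (Agpat5). The 5 other phosphatidate phosphatases, Lpin2 and Lpin3 among them, had a median of -0.35 and none was past 2-fold. Of the monoacylglycerol acyltransferases, which feed diacylglycerol to the Dgat enzymes, Mogat1 was at least 12.4-fold higher and Mogat2 changed by -4.17 ± 0.21.

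In the supply of glycerol phosphate, Pck1, the enzyme of glyceroneogenesis, was at least 40.6-fold higher and Aqp3, a glycerol channel, was higher by 5.34 ± 0.22. Gpd1l, the close relative of Gpd1, changed by -0.87 and the mitochondrial Gpd2 by -0.02. The group's median was -0.05 over 6 genes.

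The intracellular lipases and their regulators had a median of 0.84. Of these 11, 4 (36.4%) were at least 2-fold higher and 0 lower, against 14.4% and 11.7% of all genes. The 4 higher genes were the carboxylesterases Ces1f (246-fold) and Ces1d (34.1-fold), Pnpla3 (at least 11.1-fold) and Pnpla8 (by 1.52 ± 0.22). For Ces1f and Ces1d the bound equals the measured change, 7.94 ± 0.38 and 5.09 ± 0.41, over a control signal below the detection call. Pnpla8 alone of these 4 was well above background in the control, where 8 of the 11 genes were. The others of the 4 passed the filter on dim probes through OSKM arrays alone. Abhd5, the activator of Pnpla2, was higher by 0.93 ± 0.12, and G0s2, its inhibitor, changed by -1.64 at day 4 and -0.22 at day 8. Genes of the Ces1 family are close in sequence, so their probes may read more than 1 of them.

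Of 17 genes of lipolytic signalling, which sets the activity of Lipe and Pnpla2, 5 were at least 2-fold higher, 1 of them (Hcar1) not at its bound, and 2 were lower. The median was 0.01. The share of higher genes, Hcar1 included, was 29.4%, against 14.4% of all genes. The share of lower genes, 11.8%, was that of all genes, 11.7%. Hcar2, a receptor that restrains lipolysis, was at least 9.53-fold higher. Neither Hcar1 nor Hcar2 was well above background in the control, and both passed the filter on dim probes through OSKM arrays alone. The β3-adrenergic receptor gene Adrb3, typical of fat cells, was higher by 1.72 ± 0.17, Pde3b, which degrades cyclic AMP under insulin, by 1.34 ± 0.29, and Prkar2b, a regulatory subunit of protein kinase A, by 1.12 ± 0.12. The probes of Pde3b were uneven, at 0.46 and 2.22. Adcy4 changed by -1.56 ± 0.21 and Adrb1 by -1.40 ± 0.42, with its probes at -2.60 and -0.19.

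Of the 12 partners and relatives of Lpl, 5 (41.7%) were at least 2-fold higher and 1 (8.33%) lower, with a median of 0.38. Of all genes, 14.4% were higher and 11.7% lower. Angptl8 was higher by 3.64 ± 0.20 and Angptl4, which inactivates Lpl, by 2.07 ± 0.20. Angptl4 was highest at day 4, with a change of 2.87 where that of Lpl was -1.62. At day 6 these changes were 2.46 and 2.70. A link between the 2 transcripts was not tested. Of the apolipoproteins, Apoc1, an inhibitor of the lipase, was higher by 3.63 ± 0.20 and its activator Apoc2 by 1.18 ± 0.25, and the receptor gene Vldlr was higher by 1.41 ± 0.14. Gpihbp1, which carries Lpl across the capillary wall, changed by -0.07, and Lmf2, a relative of the factor that matures Lpl, by -1.01 ± 0.20.

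In the phospholipid branch, which draws on the same phosphatidate and diacylglycerol, 1 of 19 genes (5.26%) was at least 2-fold higher and 2 (10.5%) were lower, where 14.4% and 11.7% of all genes were, with a median of -0.16. Chpt1, a choline phosphotransferase that uses diacylglycerol, was higher by 1.94 ± 0.15. Cds2, which turns phosphatidate toward phosphatidylinositol, changed by -1.89 ± 0.17 and Pcyt1b by -2.17 ± 0.24.

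**Figure D4:**
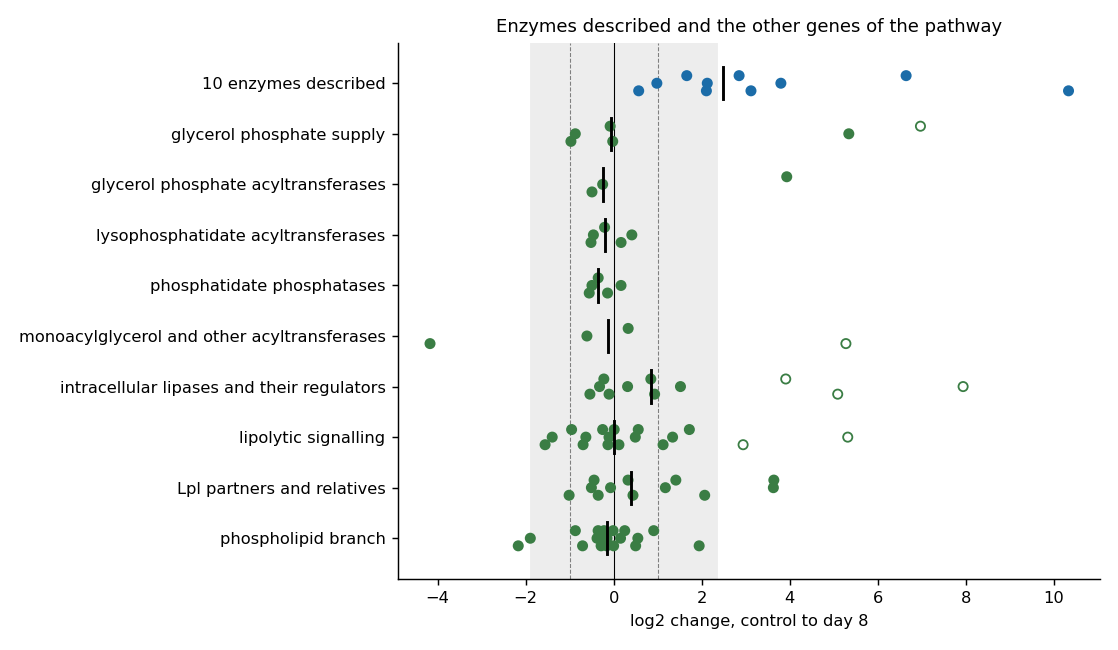
Log2 change from the CMP control to day 8 of the 10 enzymes (blue) and of 82 other genes of the pathway in 9 groups (green), 1 point per gene, black bars the group medians, open points genes not well above background in the control, whose values have only a lower bound; grey marks the 5th to 95th percentile of all genes, -1.89 to 2.34, and dashed lines 2-fold. Open points are drawn at the measured change, which can lie above the bound. Pck1 stands at 6.97 where its bound is 5.34, and Hcar1 at 2.94 where its bound is 0.99. The grey band describes single genes and not medians. The median of the enzymes is 2.49, and the highest median of another group is 0.84, for the intracellular lipases.

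The genes whose course came nearest to the median course of the 10 enzymes (0.31, 1.96 and 2.49 at days 4, 6 and 8) were found by Euclidean distance over these 3 changes among 13752 genes above background on all 4 arrays. They were Mmrn2 at a distance of 0.21, Sycp3 and Dlg2 at 0.36, Mlxipl, the carbohydrate response factor ChREBP, at 0.38, and Acot5, an acyl-CoA thioesterase, at 0.44. By Pearson's correlation over the 4 arrays, 0 of these 5 were among the 5 nearest, so the naming depends on the measure and rests on few points.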

How the data were processed

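Total RNA (250 ng, per the labels) of 1 CMP control and OSKM-CMPs at days 4, 6 and 8 was labelled with Cy3 and hybridised to SurePrint G3 Mouse GE arrays. The authors' Feature Extraction files give a background-subtracted processed intensity for each of 62976 spots, its error and flags (software 10.7.3.1 in the deposited headers, 9.5.3 in the submitters' processing notes). The deposited log2 table, normalized by the authors in GeneSpring, equals the log2 intensity less a constant per array. Here, control spots (3671) and outlier spots (87 to 106 per array) were left out, log2 intensity was averaged per probe, and each array's 75th percentile, a signal of 388.5 to 411.1, was subtracted. Probes were kept if some array flagged them well above background (35547). Genes were named through RefSeq (GRCm38.p6) by accession (26762 probes), symbol (3819) or synonym (639), and 24461 probes had no match; a gene took the mean of its probes. Probe positions are those of the files (mm9); exons and UTRs on mm9 were not analysed here.

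The members and the lists were chosen with earlier results of these data known. Besides the 10 enzymes, the text names up to 4 genes per pathway group with the largest change each way at day 8, past 2-fold, and the 5 nearest genes; others, named for their role or relation to an enzyme, and the marker genes with values, were chosen after their values were seen. With 1 array per condition no test was made, and the number of arrays limits the precision. The scripts were tested on simulated data. Alternatives were normexp (offset 50) with quantile normalization, quantile normalization alone, scaling by the array median, the authors' values, other filters on dim probes, a floor, the brightest probe, and thresholds of 1.5-fold and 3-fold. Python 3.11.15, numpy 2.4.6, pandas 2.3.3, matplotlib 3.10.9, R 4.3.3 and limma 3.58.1 were used.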

Additional observations from a re-analysis of the deposited data

How the results depend on the processing

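No paired analysis was possible because the conditions have single arrays and nothing was tested. Across the alternatives, 131 values of counts and medians stayed close to those reported, 12 moved and 0 reversed. A count was taken as close if it changed by at most 1.5-fold, so 2 enzymes in place of 3 stands among the 131. Some alternatives could hardly differ. The authors' values are the same intensities less a constant per array. Every enzyme was well above background on all 4 arrays by some probe, so the filters and the floor changed few enzyme values. The cause of a move was not tested unless given. A threshold of 3-fold left 1 enzyme higher (Gpd1) and 1 lower (Lpl) at day 4. The day 4 count of higher enzymes was 2 with the array median as the scale, with normexp and without a filter. Under normexp with quantile normalization, which adds an offset and so draws in changes from dim signals, the median change of the enzymes was 1.52 at day 6 and 2.05 at day 8, and 1.22 from day 4 to day 6 and 1.66 from day 4 to day 8. Scaling by the array median shifted all genes by a median of -0.15, -0.17 and -0.30 at days 4, 6 and 8, and the enzymes' median at day 8 was 2.22. Of the other pathway genes, 12 were higher at day 8 when all 4 arrays had to be above background, and 10 were lower by the array median, 14 at 1.5-fold and 3 at 3-fold. Of the nearest genes, 0 were kept by correlation. Single enzymes at day 8 moved beyond their error in 18 of 90 values with no change of sign; under normexp Gpd1 was 8.74, Lipe 1.90 and Gpam 1.36, and Lpin1 was 1.88 with its dim probe. Dgat1, at 1.04 under quantile normalization and 1.01 under normexp, crossed 2-fold there, which made 9 enzymes higher at day 8.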
